A study of Mus musculus with 11 samples.

Results

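Hes1, Id1, Id2, Id3, Myc, Mxd1 and Max are 7 genes of the basic helix-loop-helix (bHLH) family of transcription regulators and their partners. They were taken from the deposited array table by gene symbol, as probe sets annotated with exactly 1 of these symbols. All 7 were found among 18755 genes, each with 1 probe set. Transcript levels were measured in macrophages grown from bone marrow of C57Bl/6 wild type mice for 1 week with 5 ng/ml of the growth factor mCSF and taken 24 hours after re-plating. There were 4 arrays of cells given both 100 ng/ml LPS and the lipid mediator prostaglandin E (PGE, 10 µM) for 1 hour. A further 3 arrays were of cells given 100 ng/ml LPS (lipopolysaccharide, a bacterial cell wall component) for 1 hour, and 4 were of untreated cells. No array of PGE without LPS was among the samples, so each value for PGE is its difference on top of LPS. Neither the form of prostaglandin E nor the origin of the replicates (separate mice or cultures) is stated in the labels, so p-values measure only the spread between these samples.

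bHLH proteins act as dimers, and the partner decides what a dimer does. Max is the shared partner of Myc, with which it activates growth genes, and of Mxd1 and related repressors that occupy the same E-box sequences. Id proteins have the dimerization region without the DNA-binding basic region, so they take E proteins out of action. Hes1 is a repressor switched on by Notch signalling, and it has been reported to restrain inflammatory cytokine genes in macrophages.

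Expression values are given in log2 units, in which 1 unit is a 2-fold change. A gene passed at a limma adjusted p under 0.05, with adjustment over all 18755 genes. All 8 listed macrophage markers lay above the array-wide median of genes in every group, with group means from 9.49 to 13.06. Listed markers of neutrophils, B cells, T and NK cells, erythroid cells and stroma had group means of at most 5.70, none of them above the median gene. Of these 17 measured markers, 4 rose for LPS plus PGE against LPS, by 0.29 to 0.44 (Col3a1, Pdgfrb, Pax5 and Alas2), and 0 fell, where 11.9% of all genes rose and 12.9% fell. Pax5 and Pdgfrb passed narrowly (limma adjusted p = 0.0499 and 0.0492). Genes below the median level of 5.92 had a median change of 0.14 in that comparison. Against untreated, 1 rose and 0 fell with LPS plus PGE (Pdgfrb, 0.38 ± 0.10), where 13.8% of all genes rose and 17.9% fell. With LPS alone 0 rose and 2 fell (Epor, -0.55 ± 0.16, and Col3a1, -0.25 ± 0.07), where 6.55% of all genes rose and 6.69% fell. The stromal list averaged 5.12 to 5.49 in LPS plus PGE arrays, 5.16 to 5.23 in LPS arrays and 5.08 to 5.44 in untreated arrays. The part of such cells in the results was not tested. Arrays of 1 group correlated at 0.996 to 0.998 across genes, and arrays of different groups at 0.980 to 0.993. The number of arrays limits the precision.

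Myc had the largest response of the 7 genes. In the values as deposited, Myc was lower and its antagonist Mxd1 higher with LPS plus PGE than with LPS. The fall of Myc did not pass after cyclic loess normalization, where the rise of Mxd1 did. Myc was raised 6.31-fold by LPS plus PGE and 8.35-fold by LPS, whereas Mxd1 was raised 3.11-fold by LPS plus PGE and 2.3-fold by LPS. Id3 rose with both stimuli, Id2 rose slightly with both, Id1 did not pass in any comparison, and Max was slightly lower with LPS plus PGE. In bulk RNA, fewer cells with a transcript and less transcript per cell cannot be told apart. Against LPS alone, 3 of the 7 genes passed, where 24.7% of all genes passed, so this count stands not far above the background. They were 1 rise, where 11.9% of all genes rose, and 2 falls, where 12.9% fell. Against untreated cells, 5 of 7 rose with LPS plus PGE, where 13.8% of all genes rose, and 1 fell, where 17.9% fell. With LPS alone 4 of 7 rose, where 6.55% of all genes rose, and 0 fell, where 6.69% fell. The median change of the 7 genes against untreated was 0.54 with LPS plus PGE, beside 0.02 over all genes, and 0.45 with LPS, beside -0.01 over all genes. The 7 genes were chosen with earlier results of these data known. Their counts and medians are therefore not independent of that choice and only describe them.

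**Figure D1:**
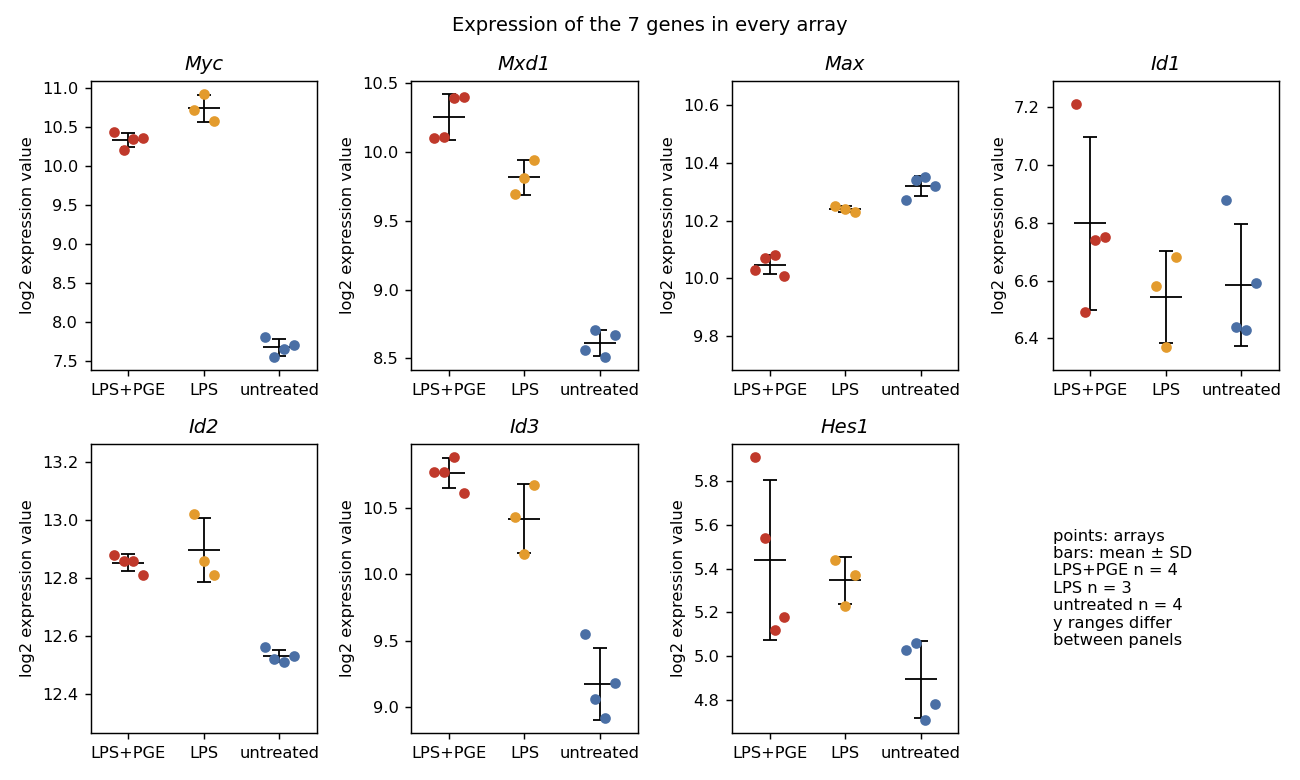
Expression of the 7 genes in every array, on the log2 scale, with a panel per gene whose range differs; points are arrays and bars show the mean ± SD (LPS+PGE n = 4, LPS n = 3, untreated n = 4). Myc is lower in every LPS+PGE array (10.21 to 10.43) than in every LPS array (10.57 to 10.92), Mxd1 is higher (10.10 to 10.40 against 9.69 to 9.94), and both lie far above untreated cells.

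Myc encodes the activating partner of Max and drives growth and metabolic genes. Its log2 values were 10.43, 10.21, 10.34 and 10.36 in LPS plus PGE arrays, 10.72, 10.92 and 10.57 in LPS arrays, and 7.81, 7.55, 7.65 and 7.70 in untreated arrays. No array of any group overlapped with another group. The rise over untreated was 2.66 ± 0.08 (SE) with LPS plus PGE (limma adjusted p = 2.67e-10) and 3.06 ± 0.09 with LPS (limma adjusted p = 2.31e-10). With PGE present, Myc was 1.32-fold lower than with LPS alone, a change of -0.40 ± 0.09 (limma adjusted p = 0.00958). Genes above the median level of 5.92, as Myc is, had a median change of -0.11 in this comparison. The fall of Myc was -0.31 ± 0.10 after cyclic loess normalization and then no longer passed (limma adjusted p = 0.0599).

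Mxd1 encodes a repressor that competes with Myc for Max. It measured 10.10, 10.11, 10.39 and 10.40 in LPS plus PGE arrays, 9.69, 9.81 and 9.94 in LPS arrays, and 8.56, 8.71, 8.51 and 8.67 in untreated arrays. The 3 groups did not overlap, and their order was the reverse of that of Myc for the stimulated groups. The rise over untreated was 1.64 ± 0.09 with LPS plus PGE (limma adjusted p = 5.11e-08) and 1.20 ± 0.10 with LPS (limma adjusted p = 3.19e-06). PGE on top of LPS added 0.44 ± 0.10, or 1.35-fold (limma adjusted p = 0.00894). This call held under all 21 alternatives run, with changes from 0.37 to 0.53. Taken within each array, the difference Mxd1 minus Myc was 0.84 higher with LPS plus PGE than with LPS. That value restates the separate changes of Mxd1 and Myc. Neither gene overlapped between these groups, so their difference could not overlap either and is no further support.

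Max, the common partner, measured 10.03, 10.07, 10.08 and 10.01 in LPS plus PGE arrays, 10.25, 10.24 and 10.23 in LPS arrays, and 10.27, 10.34, 10.35 and 10.32 in untreated arrays. Replicates lay close together and the groups did not overlap, but the steps between groups were small. Max fell with LPS plus PGE, by 0.28 ± 0.05 on the log2 scale against untreated (limma adjusted p = 0.00104) and by 0.19 ± 0.05 against LPS (limma adjusted p = 0.0198). LPS alone left it at -0.08 ± 0.05, which did not pass (limma adjusted p = 0.359; 95% interval -0.19 to 0.03). Genes above the median level of 5.92, as Max is, had a median change of -0.11 in both comparisons with LPS plus PGE. Genes below that level had a median change of 0.14 in both, so small rises of dim genes given below stand beside that shift. After cyclic loess normalization, which removes shifts that follow the level, Max changed by -0.17 against untreated (limma adjusted p = 0.0198) and by -0.12 against LPS, where it no longer passed (limma adjusted p = 0.138). The call against LPS was also lost after quantile normalization (limma adjusted p = 0.054) and in a fit of those groups alone (limma adjusted p = 0.0505).

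**Figure D2:**
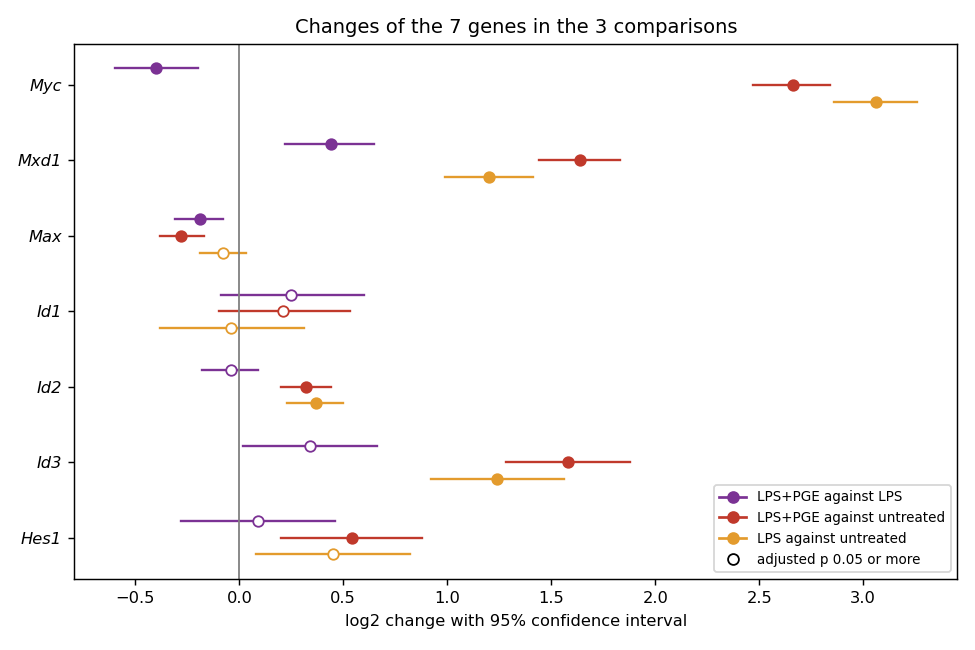
Log2 changes of the 7 genes with 95% confidence intervals from the limma fit over all 11 arrays, for LPS+PGE against LPS, LPS+PGE against untreated and LPS against untreated; filled points passed and open points did not. The changes of Myc (-0.40) and Mxd1 (0.44) for LPS+PGE against LPS lie on opposite sides of 0, and all intervals of Id1 include 0.

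Id3, an inhibitor of E proteins, was the Id gene with the larger response. Its log2 values were 10.77, 10.77, 10.88 and 10.61 in LPS plus PGE arrays, 10.43, 10.15 and 10.67 in LPS arrays, and 9.55, 9.06, 8.92 and 9.18 in untreated arrays. All stimulated arrays lay above all untreated ones, while the stimulated groups overlapped. Id3 rose by 1.58 ± 0.14 with LPS plus PGE (2.99-fold, limma adjusted p = 3.46e-06) and by 1.24 ± 0.15 with LPS (2.36-fold, limma adjusted p = 0.000102). The difference between the stimuli was 0.34 ± 0.15 and did not pass (limma adjusted p = 0.109), with an interval of 0.02 to 0.66.

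Id2, whose product also binds E proteins, had the highest signal of the Id genes in every array, although signals of different probe sets are not a measure of relative abundance. It measured 12.88, 12.86, 12.86 and 12.81 with LPS plus PGE, 13.02, 12.86 and 12.81 with LPS, and 12.56, 12.52, 12.51 and 12.53 untreated. Stimulated arrays were all higher than untreated ones, and the stimulated groups overlapped. The rises were modest at 0.32 ± 0.06 with LPS plus PGE (1.25-fold, limma adjusted p = 0.00114) and 0.37 ± 0.06 with LPS (1.29-fold, limma adjusted p = 0.00158). Between the stimuli the change was -0.04 ± 0.06 (limma adjusted p = 0.62; interval -0.18 to 0.09).

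Id1, the third Id gene, measured 7.21, 6.49, 6.74 and 6.75 with LPS plus PGE, 6.58, 6.37 and 6.68 with LPS, and 6.88, 6.44, 6.43 and 6.59 untreated. All 3 groups overlapped. Against untreated its changes were 0.21 ± 0.15 with LPS plus PGE (limma adjusted p = 0.276; interval -0.10 to 0.53) and -0.04 ± 0.16 with LPS (limma adjusted p = 0.913; interval -0.38 to 0.31). LPS plus PGE against LPS gave 0.25 ± 0.16 (limma adjusted p = 0.252; interval -0.09 to 0.60). Replicate 1 was the highest array in both the LPS plus PGE group and the untreated group.

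Hes1 measured 5.91, 5.54, 5.12 and 5.18 in LPS plus PGE arrays, 5.44, 5.23 and 5.37 in LPS arrays, and 5.03, 5.06, 4.71 and 4.78 in untreated arrays. Every stimulated array lay above every untreated one, and the LPS plus PGE arrays spread over a wider range (SD 0.37) than the LPS arrays (SD 0.11). Hes1 was dim, with group means of 5.44 (LPS plus PGE), 5.35 (LPS) and 4.89 (untreated), below the median level of genes of 5.92. In no array was it below the lower quartile. Genes below 5.92 had a median change of 0.14 with LPS plus PGE against untreated. Hes1 rose with LPS plus PGE by 0.54 ± 0.16 (1.46-fold, limma adjusted p = 0.0203). After cyclic loess normalization Hes1 rose by 0.53 in that comparison (limma adjusted p = 0.0232). With LPS alone its change of 0.45 ± 0.17 did not pass (limma adjusted p = 0.106), and the stimuli differed by only 0.09 ± 0.17 (limma adjusted p = 0.713; interval -0.28 to 0.46). With replicate number as a block, a pairing that the labels do not state, the rise with LPS plus PGE was 0.54 ± 0.12 (limma adjusted p = 0.00854). The change with LPS alone was then 0.39 ± 0.13 and did not pass (limma adjusted p = 0.0902). In the unpaired fit, calls for Hes1 depended on single arrays. The rise with LPS plus PGE was lost without untreated replicate 3 (limma adjusted p = 0.0572), untreated replicate 4 (0.0538) or LPS plus PGE replicate 2 (0.0514). Without LPS plus PGE replicate 1, which had the highest value, the change with LPS alone passed (limma adjusted p = 0.0327), as it did with equal array medians (0.0334) and in a fit of the LPS and untreated arrays alone (0.0288).

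Counted without a test, arrays of both groups did not overlap for 6 of the 7 genes in LPS plus PGE against untreated, where 35.1% of all genes did not overlap. The count was also 6 of 7 for LPS against untreated, beside 23.1% of all genes, and 3 of 7 for LPS plus PGE against LPS, beside 33.9%. Changes of at least 2-fold that passed were found for Myc, Mxd1 and Id3 in LPS plus PGE against untreated, where 2.97% of all genes reached that size. Myc, Mxd1 and Id3 also reached it in LPS against untreated, beside 1.93% of all genes. None of the 7 reached it between the stimuli, where 0.714% of all genes did.

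Promoter sequences from RefSeq (build GRCm38.p6) were found for 4 of the 7 genes, Id2, Id3, Mxd1 and Max. Those of Id2, Id3 and Mxd1 are shown because these genes rose with either stimulus, and that of Max because it is the partner that did not rise. Each runs from 250 bases before the transcript start to 50 bases after it, 5′ to 3′ on the strand of the gene. For Mxd1 and Max the start used lies inside the gene's RefSeq span, which reaches 86669234 and 76962323. Positions are counted from the start used. Capitals mark matches on either strand to the cyclic AMP response element TGACGTCA or its core TGACG, the E-box CACGTG bound by Myc and Max, the N-box CACNAG bound by Hes1 or the RBPJ core TGGGAA. An NF-kB pattern was searched as well. The core lies within the full cyclic AMP response element. GC boxes (GGGCGG) were counted but left in lower case.
Id2, chr12:25096043-25096342, minus strand: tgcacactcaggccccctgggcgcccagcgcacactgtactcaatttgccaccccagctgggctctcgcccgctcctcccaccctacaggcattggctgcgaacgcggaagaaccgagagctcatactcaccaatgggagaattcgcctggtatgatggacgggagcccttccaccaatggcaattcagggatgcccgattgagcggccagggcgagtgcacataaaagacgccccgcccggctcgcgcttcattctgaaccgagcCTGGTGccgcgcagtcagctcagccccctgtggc
Id3, chr4:136143572-136143871, plus strand: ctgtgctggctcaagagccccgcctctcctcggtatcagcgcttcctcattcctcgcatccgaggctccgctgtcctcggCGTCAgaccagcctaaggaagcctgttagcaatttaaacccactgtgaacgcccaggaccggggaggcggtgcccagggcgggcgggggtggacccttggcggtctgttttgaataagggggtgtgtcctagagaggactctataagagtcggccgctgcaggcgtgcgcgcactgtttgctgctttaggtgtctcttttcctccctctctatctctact
Mxd1, chr6:86669110-86669409, minus strand: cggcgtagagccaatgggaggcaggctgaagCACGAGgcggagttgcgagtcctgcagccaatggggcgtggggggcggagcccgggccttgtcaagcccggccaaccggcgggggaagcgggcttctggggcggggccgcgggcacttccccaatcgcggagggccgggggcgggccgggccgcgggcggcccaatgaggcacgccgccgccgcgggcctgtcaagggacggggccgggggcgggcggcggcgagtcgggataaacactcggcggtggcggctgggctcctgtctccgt
Max, chr12:76962199-76962498, minus strand: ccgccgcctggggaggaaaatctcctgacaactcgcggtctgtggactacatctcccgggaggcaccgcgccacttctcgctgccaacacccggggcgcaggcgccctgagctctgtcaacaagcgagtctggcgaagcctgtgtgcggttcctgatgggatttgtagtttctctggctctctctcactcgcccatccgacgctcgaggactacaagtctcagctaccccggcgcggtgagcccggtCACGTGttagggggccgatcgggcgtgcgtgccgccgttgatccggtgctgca

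The Id2 window held 1 N-box, at position 16 with the start counted as 0, and 1 GC box. The Id3 window held 1 match to the TGACG core, at -170, and 2 overlapping GC boxes. A TGACG core was present in 20.8% of all 32851 promoter windows of this length, and a GC box in 35.7%. The Mxd1 window held 1 N-box, at -219, a motif found in 42.5% of windows, and 6 GC boxes. The Max window held 1 E-box, at -3, a motif found in 7.15% of windows, and no GC box. None of the 4 windows held the full cyclic AMP response element (1.79% of windows), the RBPJ core (25.6%) or the NF-kB pattern (1.63%). The NF-kB pattern searched was a narrow form, with the base fixed at most of its positions. Whether these windows hold NF-kB sites of other forms was not tested. These matches describe letters in a short window and do not show binding.

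Myc, Mxd1 and Max belong to a wider network of bHLH zipper proteins, and 10 further genes of it were measured. With LPS alone, none of the 10 passed in the limma fit, 1 of them (Mycl) had an unadjusted p under 0.05 in it (limma adjusted p = 0.144), and their median change of -0.01 equalled that of all genes. With LPS plus PGE 2 of the 10 rose and 5 fell against untreated, where 13.8% of all genes rose and 17.9% fell. Against LPS 2 rose and 3 fell, where 11.9% of all genes rose and 12.9% fell. Mxi1, another Max-binding repressor of the Mxd family, had the largest response, and it passed in both comparisons of LPS plus PGE. Mxi1 measured 10.21, 10.11, 10.12 and 10.33 in LPS plus PGE arrays, 8.96, 9.06 and 9.09 in LPS arrays, and 9.12, 9.09, 8.85 and 9.10 in untreated arrays. LPS arrays sat among the untreated ones, and every LPS plus PGE array lay above both. The change was 1.16 ± 0.08 against LPS (2.23-fold, limma adjusted p = 3.28e-06), 1.15 ± 0.07 against untreated (limma adjusted p = 2.35e-07), and 0.00 ± 0.08 for LPS against untreated (limma adjusted p = 0.986; interval -0.18 to 0.17).

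The falls in this network were small. Mnt, a Max-binding repressor, changed by -0.38 ± 0.09 for LPS plus PGE against LPS (limma adjusted p = 0.0114), and Mlxip, a partner of Mlx, by -0.30 ± 0.06 (limma adjusted p = 0.00709). Both calls were lost after cyclic loess normalization, which left 1 rise (Mxi1) and 0 falls in this comparison. Mga (-0.27 ± 0.08, limma adjusted p = 0.0313) and the dim gene Mlxipl (0.42 ± 0.12, limma adjusted p = 0.024) also passed against LPS, but lost their calls under 11 and 7 of 21 alternatives. Against untreated, the dim gene Mycl rose with LPS plus PGE (0.48 ± 0.12, limma adjusted p = 0.0119). Mnt (-0.40 ± 0.08), Mlxip (-0.35 ± 0.06), Mxd4 (-0.31 ± 0.08), Mxd3 (-0.51 ± 0.18) and Mga (-0.22 ± 0.07) fell in that comparison (limma adjusted p from 0.000895 to 0.0482). The calls for Mxd3 and Mga were lost under 12 and 14 of 21 alternatives. After cyclic loess normalization 2 rises and 2 falls were left there. With equal array medians, 2 of the 10 genes rose with LPS alone.

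**Figure D3:**
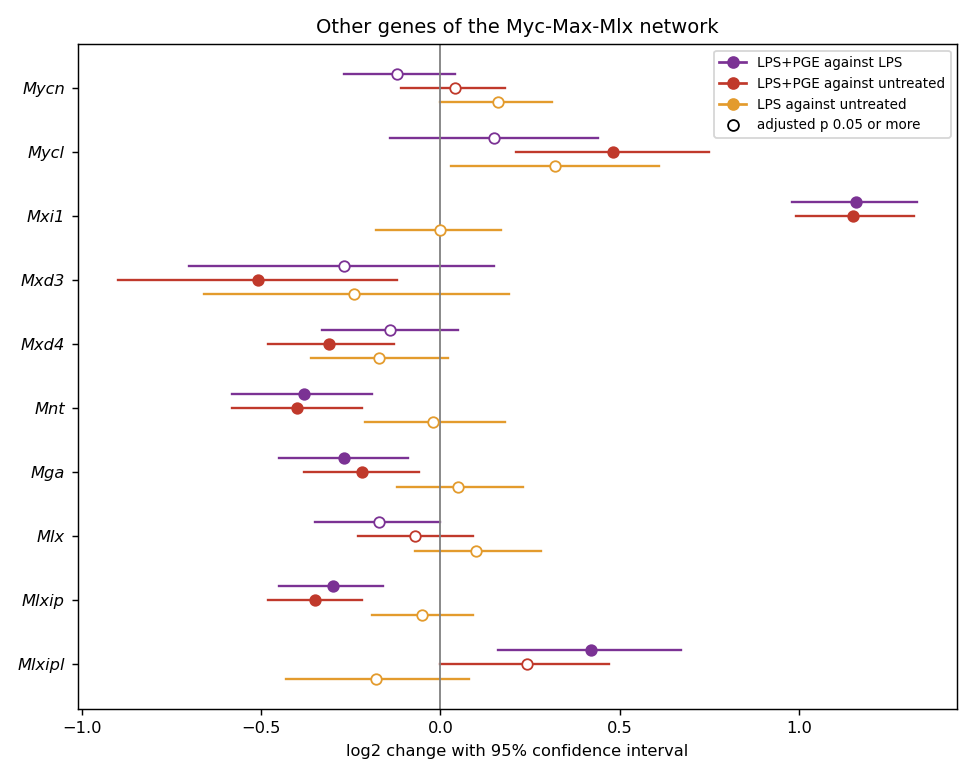
Log2 changes with 95% confidence intervals for the 10 other genes of the Myc-Max-Mlx network, in the 3 comparisons; filled points passed the limma test and open points did not. Mxi1 stands at 1.16 for LPS+PGE against LPS and at 1.15 for LPS+PGE against untreated, while its point for LPS against untreated lies at 0.00.

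Genes known as Myc targets in growth and ribosome making were counted next, and 25 were measured. With LPS plus PGE against untreated 4 rose and 5 fell (median change -0.04, beside 0.02 over all genes), where 13.8% of all genes rose and 17.9% fell. With LPS 3 rose and 2 fell (median -0.01, as over all genes), where 6.55% of all genes rose and 6.69% fell. Against LPS, 2 rose and 3 fell with LPS plus PGE, where 11.9% of all genes rose and 12.9% fell. Odc1, which makes polyamines, stood apart from the rest of that list. Odc1 measured 11.78, 11.58, 11.72 and 11.67 with LPS plus PGE, 8.95, 8.86 and 8.75 with LPS, and 7.98, 7.98, 7.88 and 7.88 untreated. Of the stimulated groups, the one with the higher Odc1 level had the lower Myc level. A relation between Myc and Odc1 was not tested. The change of Odc1 was 2.84 ± 0.07 for LPS plus PGE against LPS (7.15-fold, limma adjusted p = 3.36e-10), and 0.92 ± 0.07 for LPS against untreated (limma adjusted p = 1.83e-06). Eif4e, the cap-binding translation factor, rose by 0.45 ± 0.10 against LPS (limma adjusted p = 0.00899) and by 0.68 ± 0.09 against untreated (limma adjusted p = 0.000177).

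Other genes of that list that passed had smaller or less stable changes. Rrs1 (0.60 ± 0.17) and Nop58 (0.36 ± 0.09) rose and Nop16 (-0.38 ± 0.07) fell with LPS, although Rrs1 lost its call under 11 and Nop58 under 4 of 21 alternatives. Ccnd2 rose (0.66 ± 0.16) and Nop16 fell (-0.41 ± 0.07) with LPS plus PGE against untreated. Against LPS, Gnl3 (-0.48 ± 0.10) and Nop58 (-0.30 ± 0.09) fell, Nop58 with the call lost under 8 of 21 alternatives. Falls in this list against untreated numbered 1 rather than 5 after quantile or cyclic loess normalization.

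Among 8 E proteins and other bHLH partners or relatives of the Id genes, 3 rose and 2 fell with LPS plus PGE against untreated, where 13.8% of all genes rose and 17.9% fell. Counts against LPS were also 3 rises and 2 falls, beside 11.9% and 12.9% of all genes. With LPS alone 1 rose and 1 fell, beside 6.55% and 6.69% of all genes. The E proteins themselves, Tcf3, Tcf4 and Tcf12, did not pass in any comparison, with changes between -0.13 and 0.02. Lyl1, a blood-lineage bHLH factor, measured 8.17, 8.38, 8.46 and 8.38 with LPS plus PGE, 8.57, 8.50 and 8.91 with LPS, and 9.68, 9.60, 9.67 and 9.86 untreated. It fell by 1.35 ± 0.10 on the log2 scale with LPS plus PGE (limma adjusted p = 6.88e-07) and by 1.04 ± 0.11 with LPS (limma adjusted p = 2.77e-05). Its further change of -0.32 ± 0.11 between the stimuli passed narrowly (limma adjusted p = 0.0494) and was lost under 14 of 21 alternatives.

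Bhlhe40 and Bhlhe41, related bHLH repressors of the circadian system, parted when PGE was added. Bhlhe40 rose by 0.75 ± 0.09 for LPS plus PGE against LPS (limma adjusted p = 0.000186), on top of a rise of 0.46 ± 0.09 with LPS (limma adjusted p = 0.00357). Bhlhe41 fell by 0.94 ± 0.11 on the log2 scale against LPS (limma adjusted p = 0.000167), with 9.65, 10.01, 9.89 and 9.52 in LPS plus PGE arrays and 10.64, 10.83 and 10.65 in LPS arrays. Id4, the fourth Id gene, rose by 0.49 ± 0.10 (limma adjusted p = 0.0051) and Tal1 by 0.52 ± 0.11 (limma adjusted p = 0.00577) in the same comparison. Against untreated, Id4 rose by 0.36 ± 0.09 and Tal1 by 0.31 ± 0.10 with LPS plus PGE, and the call for Tal1 was lost under 6 of 21 alternatives. Id4 was dim, with group means of 4.83 (LPS plus PGE), 4.34 (LPS) and 4.46 (untreated). Genes below the median level of 5.92 had a median change of 0.14 in both comparisons with LPS plus PGE.

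**Figure D4:**
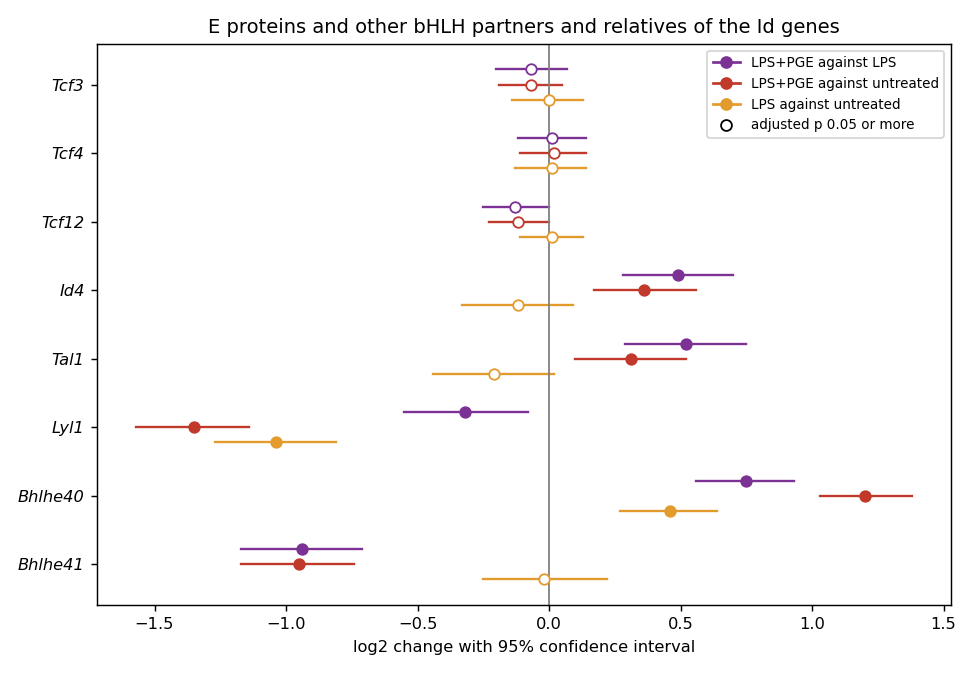
Log2 changes with 95% confidence intervals for 8 E proteins and other bHLH partners or relatives of the Id genes, in the 3 comparisons; filled points passed the limma test and open points did not. Bhlhe40 (0.75) and Bhlhe41 (-0.94) lie on opposite sides of 0 for LPS+PGE against LPS, and the points of Tcf3, Tcf4 and Tcf12 are all open.

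BMP and Smad signals are well known inducers of Id genes, and 23 genes of that pathway were measured. With LPS plus PGE 6 rose and 2 fell against untreated (list median 0.02, beside 0.02 over all genes), where 13.8% of all genes rose and 17.9% fell. Against LPS 6 rose and 1 fell (0.05, beside 0.00), where 11.9% of all genes rose and 12.9% fell. With LPS alone 2 rose and 1 fell (-0.02, beside -0.01), where 6.55% of all genes rose and 6.69% fell. Bambi, a decoy receptor of this pathway, measured 8.90, 8.82, 8.91 and 8.98 with LPS plus PGE, 6.99, 7.37 and 7.40 with LPS, and 7.48, 7.40, 7.17 and 7.24 untreated. As with Mxi1, the LPS arrays did not stand above the untreated ones. The change was 1.65 ± 0.11 against LPS (limma adjusted p = 1.63e-06) and 1.58 ± 0.10 against untreated (limma adjusted p = 1.45e-07). Smad6, an inhibitory Smad, rose by 0.93 ± 0.14 against untreated (limma adjusted p = 0.000407) and by 0.58 ± 0.15 against LPS (limma adjusted p = 0.0191). The call for Smad6 against LPS was lost without LPS replicate 2 or without LPS plus PGE replicate 1. The ligand gene Bmp2 rose with LPS plus PGE (1.47 ± 0.14) and with LPS (1.02 ± 0.15) over an untreated level of 2.98, below the lower quartile of those arrays, where a level was not told from none. The receptor gene Acvr2a rose with LPS (0.71 ± 0.09, limma adjusted p = 0.000263). Its group means were 7.55 with LPS plus PGE, 8.01 with LPS and 7.30 untreated. Smaller calls were Bmp6 against untreated (0.32 ± 0.09), the BMP antagonist gene Nog (0.60 ± 0.11) and Bmp7 (0.47 ± 0.13) against LPS, all higher with LPS plus PGE, and Smad4 with LPS (-0.19 ± 0.05). Bmp7 lost its call under 8 and Smad4 under 14 of 21 alternatives. Bmp6, Nog and Bmp7 were dim, with group means of at most 5.21.

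Notch signalling and the Hes and Hey relatives of Hes1 gave 28 measured genes, of which 5 rose and 3 fell with LPS plus PGE against untreated, where 13.8% of all genes rose and 17.9% fell. Against LPS 4 rose and 5 fell, where 11.9% of all genes rose and 12.9% fell. With LPS alone 5 rose and 2 fell, where 6.55% of all genes rose and 6.69% fell. The Notch ligand gene Jag1 measured 10.64, 9.99, 10.17 and 10.57 with LPS plus PGE, 10.18, 10.39 and 10.03 with LPS, and 8.00, 7.80, 7.82 and 7.89 untreated. Its stimulated groups overlapped and lay well above untreated, with rises of 2.47 ± 0.14 for LPS plus PGE and 2.32 ± 0.15 for LPS (limma adjusted p = 5.08e-08 and 2.92e-07). Rbpj, the DNA-binding protein of Notch signalling, rose by 0.44 ± 0.08 with LPS (limma adjusted p = 0.00231; call lost when a gene's probe sets were averaged). The coactivator gene Maml1 rose by 0.38 ± 0.08 with LPS (limma adjusted p = 0.00783). Group means with LPS plus PGE, with LPS and untreated were 10.13, 10.35 and 9.91 for Rbpj, and 7.51, 7.80 and 7.42 for Maml1. Hes2, a relative of Hes1, rose by 0.81 ± 0.10 for LPS plus PGE against LPS (limma adjusted p = 0.000332), and Jag2 by 0.54 ± 0.14 (limma adjusted p = 0.0181), a call lost without LPS replicate 2. Against untreated, Hes2 rose by 0.55 ± 0.09 and Jag2 by 0.68 ± 0.13 with LPS plus PGE. Hes2 was dim, with group means of 5.46 (LPS plus PGE), 4.65 (LPS) and 4.91 (untreated). For LPS plus PGE against LPS, Nrarp, a feedback inhibitor of Notch, rose by 0.55 ± 0.11 (limma adjusted p = 0.00483) over an LPS level below the lower quartile, and Maml2 fell (-0.53 ± 0.08, limma adjusted p = 0.00148). Hes6 fell by 0.53 ± 0.09 on the log2 scale with LPS plus PGE against untreated (limma adjusted p = 0.000756). Its change with LPS alone (-0.33 ± 0.09, limma adjusted p = 0.0392) lost its call under 11 of 21 alternatives. Falls against LPS numbered 1 rather than 5 after cyclic loess normalization, with the 4 rises unchanged in number.

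Each member that passed in any comparison, so not Id1, was placed among 17456 genes. Predicted genes, RIKEN clones and small RNA genes were left out. Profiles were compared over the 11 arrays after each gene was centred on its untreated mean. The measure was the root-mean-square difference on the log2 scale. Nearest to Myc was Noct, the circadian gene nocturnin, at 0.11. Noct changed by 2.63 with LPS plus PGE and 3.03 with LPS against untreated, and by -0.40 between the stimuli. Zc3h12c (0.21) and Ehd1 (0.24) came next. Nearest to Mxd1 were Sh3d21 (0.14), Smim3 (0.16) and the inhibitor of apoptosis gene Birc3 (0.17). Id3 was most like E2f8 (0.19), Dnajb4 (0.21) and Mxd1 itself (0.22). Id2 was most like the complement receptor gene C5ar1 (0.04), Hmgn5 (0.05) and Itprid2 (0.06). Hes1 had Txnl1 (0.17), Ampd1 (0.17) and Kcnq1 (0.19) nearest, and Max had Eloa, Rsl24d1 and Gatad2b, each at 0.03. Max and Id2 changed little, so small differences were easily reached for them.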

How the data were processed

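RNA from 11 macrophage samples was measured on Affymetrix mouse gene arrays from 250 ng of total RNA each. Of 12 arrays made, the authors left out 1 LPS array for quality, per the labels. The deposited values are on a log2 scale, inferred from RMA (background correction, normalization and summary), which the submitters' processing notes name beside Affymetrix Power Tools, R 2.13.1 and Partek, and from their range (1.20 to 13.81). No genome build was named in those notes.

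Of 35309 probe sets, 21143 carried 1 gene symbol, 1870 several and 12296 none. The probe set with the highest mean over all arrays stood for a gene, which gave 18755 genes. In R 4.3.3, limma 3.58.1 fitted the means of the 3 groups over all 11 arrays (8 residual and 3.77 prior degrees of freedom), unpaired, two-sided, with Benjamini-Hochberg adjustment over all genes. Figures were drawn with matplotlib 3.10.9. The fit was checked on simulated data with independent noise in each array and changes set only in the LPS plus PGE group. That check held no shared replicate effect, so it cannot speak to a pairing of the arrays.

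The members and gene lists were chosen with earlier results of these data known. Of each list, the text names the 4 largest changes that passed in a comparison (all that passed in lists of at most 10 genes). The 3 genes nearest in profile to each member that passed are also named. Tcf3, Tcf4 and Tcf12 were named after their values were seen. Listed genes without a single-symbol probe set were not analysed here. Alternatives were other normalizations, variance models, array weights, filters, probe set rules, a block and each array left out.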

Additional observations from a re-analysis of the deposited data

How the results depend on the processing

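Across 21 alternatives, 431 of 441 changes of the 7 genes kept their direction where called and their side of the threshold, 7 calls were lost, 3 were gained and 0 were reversed. The lost and gained calls concern Hes1, Max and Myc and are given with those genes. For LPS plus PGE against LPS, 1 member passed after cyclic loess normalization (Mxd1), against 3 in the values as deposited. Genes that passed in that comparison numbered 4641 as deposited, 2358 after quantile normalization and 2123 after cyclic loess normalization, and 2945 to 4455 with an array left out, the lowest without LPS replicate 3. For LPS plus PGE against untreated the number was 5946 as deposited and 3917 after cyclic loess normalization. Equal array medians moved the median change of all genes from 0.02 to 0.10 for LPS plus PGE and from -0.01 to 0.10 for LPS, both against untreated. The calls then split into 4499 rises and 2119 falls (as deposited 2587 and 3359) for LPS plus PGE, and 2747 and 613 (as deposited 1229 and 1254) for LPS. For LPS plus PGE against LPS they split into 1804 rises and 3004 falls (as deposited 2225 and 2416). Without the dimmest genes (the lower tertile by mean), LPS plus PGE gave 1759 rises and 3743 falls against untreated and 1260 and 2828 against LPS.

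Of 1404 changes of other named genes under the alternatives, 1276 kept their call and 128 lost it. Replicate numbers are not said to pair arrays. Same-numbered arrays of different groups correlated in their deviations from the group means at -0.02 to 0.21 and all 11 arrays correlated best with their own number, a hint from the data only. With replicate number as a block, 4698 genes passed for LPS plus PGE against LPS, 6124 for LPS plus PGE against untreated and 2454 for LPS against untreated, and no call of the 7 genes changed.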

Other observations

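Il6, Il12b and Cxcl1 have been reported as genes that Hes1 holds down in macrophages. All 3 were raised by both stimuli, and with PGE on top of LPS they differed in direction, while the change of Hes1 was 0.09 ± 0.17 (limma adjusted p = 0.713). Il6 was higher with LPS plus PGE than with LPS by 3.68 ± 0.13 (limma adjusted p = 5.09e-09), Il12b was lower (-1.44 ± 0.18, limma adjusted p = 0.000323), and Cxcl1 did not pass (0.18 ± 0.20, limma adjusted p = 0.525). A relation between Hes1 and these genes was not tested.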
